A study of Homo sapiens with 8 samples.

Results

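The HOX genes are the 39 human homeobox genes that lie in 4 clusters, HOXA, HOXB, HOXC and HOXD. They were followed here on 8 Affymetrix Human Gene 1.0 ST arrays of 4 established human cell lines, each sorted with an antibody against the transporter ABCB5. A gene was a member where a probe set was annotated to it alone and its symbol was HOXA, HOXB, HOXC or HOXD followed by a number, with no antisense names. This gave 27 of the 18417 genes measured, each through 1 probe set. They were all 10 HOXB genes, all 9 HOXD genes, 7 of 9 HOXC genes (HOXC5 and HOXC8 to HOXC13) and, of the 11 HOXA genes, HOXA2 alone. The other HOXA genes were not analysed here, and 1 probe set that names HOXC6 and HOXC4 together is given at the end.

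HOX genes encode homeodomain transcription factors that give cells along the body axis their positional identity. Within a cluster, gene order matches the order in which the genes are switched on in the embryo, low numbers towards the head and high numbers towards the tail, and genes of the same number in different clusters are paralogs. HOX proteins bind DNA together with TALE cofactors of the PBX and MEIS families. Polycomb proteins keep the clusters silent, Trithorax proteins and retinoic acid help to open them, and adult cells, those of the gut included, keep parts of the pattern.

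The study sorted tumour cells by ABCB5 to compare cells with and without it. The groups were ABCB5-positive and ABCB5-negative cells, 4 arrays each, 1 of each from COLO741, SW620, HT29 and HCT116, lines that the labels call colon carcinoma. All were grown in RPMI medium with serum and antibiotics, and the labels name no treatment besides the sort. The series design text has SW480 in place of SW620, and the sample labels were followed. No label says that the arrays came from separate cultures, so the p-values measure the spread between the 2 arrays of each line beyond the mean population difference, which may be technical.

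The labels and the data did not match everywhere. ABCB5 itself had 8.14 in ABCB5-positive COLO741 cells, against 9.42 in ABCB5-negative COLO741 cells, the reverse of what the sort names. It lay between 5.24 and 5.69 on the arrays of the other lines, below the background limit. All values here are the deposited log2 values, and the background limit of an array is the 95th percentile of its 360 olfactory receptor probe sets, which lay between 7.38 and 7.55. COLO741 went against its colon label: EPCAM, an epithelial surface protein, averaged 5.90 there, against 13.34 to 13.74 in the other lines, and 9 of 9 measured melanocyte genes exceeded the limit on both its arrays, against 2 to 5 elsewhere. Of 14 colon epithelial genes, COLO741 had 6 above the limit, SW620 had 11, HT29 had 12 and 14, and HCT116 had 10. The ABCB5-positive SW620 array had 7 of 10 phagocyte and leukocyte genes above the limit at a mean of 8.42, against 3 at a mean of 7.12 on its ABCB5-negative array. The other arrays had 2 to 4 of these genes above it, and 3 to 6 of 8 fibroblast genes were above it on the 8 arrays. The count of genes called across the lines is therefore also given without COLO741.

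HOX genes differed widely between the lines. In RNA of whole cell populations, fewer cells that express a gene and less RNA of it per cell cannot be told apart. A gene was called across the lines where limma's moderated F-test had an adjusted p under 0.05, over 16910 genes tested, and the highest and lowest line mean lay at least 1 log2 unit apart. By this rule 15 of 27 HOX genes (55.6%) were called, and 31.3% of all genes tested were. The median difference between the highest and the lowest line was 1.09 over the HOX genes and 0.64 over all genes tested, while the median gap between the 2 arrays of a line was 0.10 and 0.11. HT29 and SW620 each held the highest mean of 10 HOX genes, COLO741 of 4 and HCT116 of 3. COLO741 held the lowest mean of 16, SW620 and HT29 of 5 each and HCT116 of 1. These tallies take in genes that were not called. Those of HT29 include HOXD13, only 0.0084 above HCT116, and HOXD3 and HOXD12, above background in no line. Those of SW620 include HOXB4, HOXC11, HOXD10 and HOXD11, and the lowest means of COLO741 include HOXB1, HOXC11, HOXD10, HOXD11 and HOXD13. Over SW620, HT29 and HCT116 alone, 10 of 27 HOX genes (37.0%) were called, and 20.9% of all genes were. HOXB2, HOXB6, HOXB8, HOXB13 and HOXD8 were the genes whose call was not made without COLO741.

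**Figure D1:**
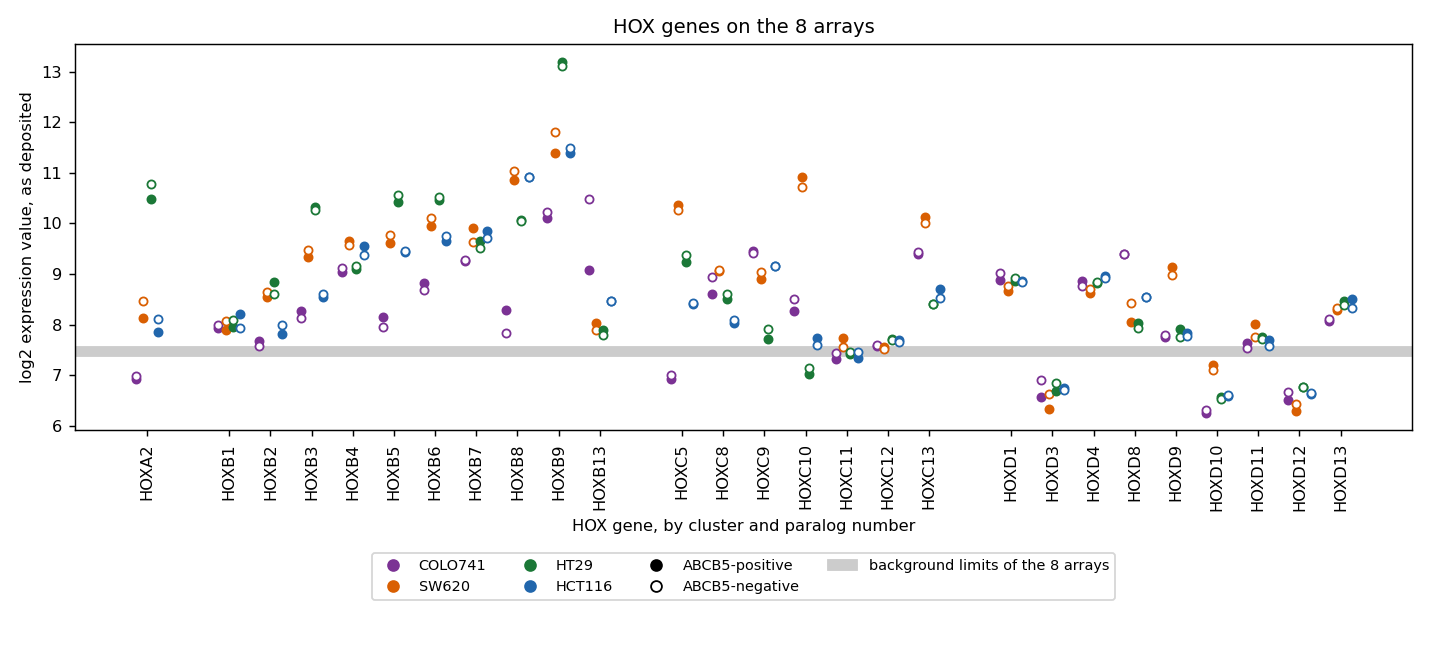
Deposited log2 values of the 27 HOX genes (vertical axis) in cluster order, with ABCB5-positive arrays as filled and ABCB5-negative arrays as open circles, coloured by cell line. The grey band spans the background limits of the 8 arrays (7.38 to 7.55). The 2 circles of a colour lie close together for nearly all genes, and HOXB13 in COLO741 is the widest pair.

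How many HOX genes were above background depended on the limit in every line. Both arrays exceeded the limit for 24 HOX genes in SW620, 23 in HCT116, 22 in HT29 and 20 in COLO741, and of all genes 67.7% did so in SW620, 68.2% in HCT116, 67.8% in HT29 and 68.5% in COLO741. At the stricter 99th percentile of the same olfactory receptor probe sets, 21 HOX genes exceeded the limit in SW620, 17 in HT29, 12 in COLO741 and 9 in HCT116. The share of all genes at that percentile is not given here, so these falls cannot be read as particular to HOX genes. At the 95th percentile, 19 HOX genes were above the limit in all 4 lines and 3 in no line (HOXD3, HOXD10 and HOXD12), next to 61.2% and 24.8% of all genes. All 10 HOXB genes exceeded that limit in every line. The limit lay below the median of all probe sets on each array (8.03 to 8.10), so a value just over it need not mean expression.

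HOXA2, which in the embryo patterns the hindbrain and the second pharyngeal arch, was brightest in HT29. Its ABCB5-positive and ABCB5-negative arrays had 10.49 and 10.79 in HT29, 8.13 and 8.47 in SW620, 7.85 and 8.11 in HCT116, and 6.93 and 6.98 in COLO741. The HT29 arrays stood above all others with no overlap, and both COLO741 arrays were below their limits of 7.45 and 7.54. HT29 was 5.06-fold above SW620, the next line (2.34 ± 0.10 log2 units, SE; limma adjusted p = 1.04e-05), and at least 8.83-fold above COLO741, computed against the limit. The HOXA2 gene lies on the minus strand at chr7:27100354-27102683 in GRCh38.p14. Its RefSeq promoter window, from 250 bases before to 50 after the start, is shown because HOXA2 was above background in 3 lines and below the limit in the other. Capitals mark CG dinucleotides, the sites at which promoter methylation falls in human DNA, and this window holds 11 of them.
HOXA2 promoter, chr7:27102634-27102933, minus strand, 5′ to 3′: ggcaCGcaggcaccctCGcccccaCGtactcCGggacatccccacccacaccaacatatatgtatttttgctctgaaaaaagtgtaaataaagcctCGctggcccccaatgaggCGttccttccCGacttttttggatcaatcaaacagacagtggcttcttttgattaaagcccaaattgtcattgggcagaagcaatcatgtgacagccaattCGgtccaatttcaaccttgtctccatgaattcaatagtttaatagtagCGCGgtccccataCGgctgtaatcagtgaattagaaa
A median RefSeq window holds 14 CG dinucleotides, and 54.7% of 35116 windows hold at least as many as HOXA2 does. One match to TGATTNAT, a motif of the kind bound by HOX and PBX proteins, was found in it when both strands were searched, and 2.82% of all windows hold one. The window has no TATAAA, which 11.5% of windows hold.

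The HOXB genes, on chromosome 17, were lowest in COLO741 nearly throughout. Of the 10, 7 were called across the lines, next to 31.3% of all genes tested, and COLO741 was lowest for all but HOXB13. HT29 was highest for 5 (HOXB2, HOXB3, HOXB5, HOXB6 and HOXB9), although for HOXB2 its arrays overlapped those of SW620. The median deviation of a HOXB gene from its mean over the lines was 0.28 in HT29, 0.28 in SW620, -0.01 in HCT116 and -0.75 in COLO741.

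HOXB9, the HOXB gene with the widest range, patterns the thoracic skeleton in mice. Its 2 arrays (ABCB5-positive first) had 13.20 and 13.11 in HT29, 11.40 and 11.80 in SW620, 11.39 and 11.49 in HCT116, and 10.11 and 10.23 in COLO741. HT29 was highest and COLO741 lowest, and SW620 and HCT116 overlapped in between. HT29 exceeded COLO741 by 2.98 ± 0.13 (SE), a 7.91-fold difference (limma adjusted p = 9.7e-06), and SW620 by 1.55 ± 0.13 or 2.94-fold (adjusted p = 0.000154).

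HOXB8, which in mice shapes the spinal cord and limbs and in blood progenitors holds back maturation, ranked differently. It had 10.85 and 11.04 in SW620, 10.91 and 10.92 in HCT116, 10.06 and 10.05 in HT29, and 8.28 and 7.83 in COLO741. SW620 and HCT116 overlapped, HT29 was lower than both, and COLO741 was lowest by a wide margin. SW620 exceeded COLO741 by 2.89 ± 0.15 (SE) or 7.41-fold (limma adjusted p = 2.37e-05), and HCT116 differed from SW620 by 0.03 ± 0.15 (adjusted p = 0.899).

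HOXB5, which acts in gut and lung development, had 10.43 and 10.57 in HT29, 9.61 and 9.77 in SW620, 9.44 and 9.46 in HCT116, and 8.15 and 7.96 in COLO741. No 2 lines overlapped, and HT29 was 5.44-fold above COLO741 (2.44 ± 0.11; limma adjusted p = 1.26e-05). HOXB3, a hindbrain gene that shares genome positions with HOXB4, had 10.32 and 10.27 in HT29, 9.34 and 9.47 in SW620, 8.55 and 8.61 in HCT116, and 8.28 and 8.14 in COLO741. The 4 lines were again separate, in the same order, with HT29 4.24-fold above COLO741 (2.08 ± 0.10; adjusted p = 1.45e-05). HOXB3 and HOXB4 overlap in their annotated spans, and whether their probe sets share signal was not tested. HOXB4 averaged 9.13 in HT29 and 9.09 in COLO741. HOXB6 and HOXB2 were called in the same direction, HOXB6 with means of 10.50 in HT29 and 8.76 in COLO741, and HOXB2 with 8.72 in HT29 and 7.63 in COLO741. The HOXB2 difference of 1.09 was 0.94, and not called, without the ABCB5-positive HT29 array.

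HOXB13, the most posterior HOXB gene, which marks prostate and distal gut epithelium, went the other way. It had 9.08 and 10.48 in COLO741, 8.47 and 8.48 in HCT116, 8.04 and 7.90 in SW620, and 7.90 and 7.79 in HT29. COLO741 was above the others, but its own arrays were 1.40 apart, the widest gap of any HOX gene in a line, with the ABCB5-positive array the lower. COLO741 exceeded HT29 by 1.93 ± 0.37 (SE) or 3.82-fold (limma adjusted p = 0.00609). Without the ABCB5-negative COLO741 array this difference was 1.19, and without the ABCB5-positive one 2.68. The remaining HOXB genes HOXB1, HOXB4 and HOXB7 exceeded the background limit in every line with differences of 0.11, 0.53 and 0.52, and were not called. The line means of HOXB1, 7.97 to 8.08, lay near the median of all probe sets, so its expression in these lines is uncertain.

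Between HOXB9 and HOXB13 lies MIR196A1, on the minus strand, whose mature miR-196a-5p is known to target HOXB8 mRNA and is shown beside these genes for that reason, with the seed of bases 2 to 8 in capitals and written from RefSeq in GRCh38.p14. The same mature RNA is made from MIR196A2 in the HOXC cluster, whose probe set averaged 6.28 to 6.35 in the 4 lines, was above background in none and was not called (limma F adjusted p = 0.965).
hsa-miR-196a-5p, MIR196A1 at chr17:48632532-48632553, minus strand, 5′ to 3′: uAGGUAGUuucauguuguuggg
The MIR196A1 probe set, which reads transcripts of the locus and not the mature miRNA, had 9.12 and 9.06 in HT29, 7.81 and 7.94 in HCT116, 7.60 and 7.95 in SW620, and 7.37 and 7.37 in COLO741. HT29 stood above the other lines, SW620 and HCT116 overlapped, and COLO741 was not above background. It was called across the lines (limma adjusted p = 0.000132). HOXB8 averaged 10.95 in SW620 and 10.92 in HCT116, against 10.05 in HT29, where MIR196A1 was highest. COLO741 was lowest for both. Any link between MIR196A1 and HOXB8 was not tested.

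**Figure D2:**
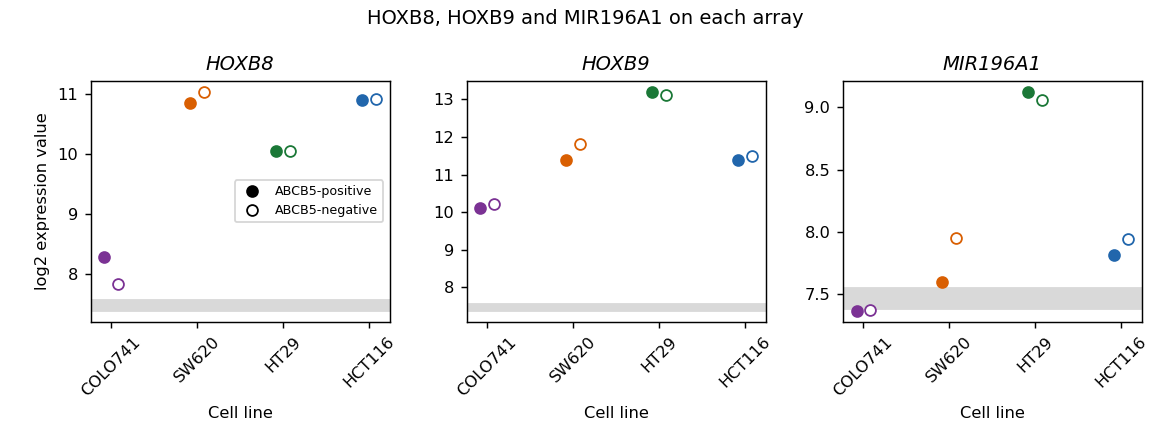
Log2 values of HOXB8, HOXB9 and MIR196A1 on each array (vertical axis), by cell line, with ABCB5-positive arrays filled and ABCB5-negative arrays open and the range of background limits in grey. HOXB9 and MIR196A1 were highest in HT29, where HOXB8 lay below SW620 and HCT116.

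Of the HOXC genes, on chromosome 12, 5 of 7 were called, next to 31.3% of all genes tested. SW620 was highest for 5 of the 7. HOXC10, a posterior gene that in mice contributes to hindlimb motor neurons, was far brighter in SW620 than in the other lines. Its 2 arrays had 10.91 and 10.73 in SW620, 8.26 and 8.51 in COLO741, 7.74 and 7.61 in HCT116, and 7.03 and 7.14 in HT29. SW620 was above all other arrays, and both HT29 arrays were below the background limit. SW620 was 5.40-fold above COLO741 (2.43 ± 0.13, SE; limma adjusted p = 2.15e-05) and at least 10.0-fold above HT29.

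HOXC5 was also highest in SW620. It had 10.36 and 10.27 in SW620, 9.25 and 9.39 in HT29, 8.40 and 8.43 in HCT116, and 6.93 and 7.0 in COLO741. The lines were separate and COLO741 was below the limit. SW620 was 1.99-fold above HT29 (0.99 ± 0.09, SE; limma adjusted p = 0.00027) and at least 7.04-fold above COLO741. HOXC5 overlaps HOXC4 and HOXC6 in the annotation, which start at the same base, so its probe set may not separate them. The promoter window of HOXC5 is shown because, like HOXA2, it was above background in 3 lines and below the limit in the other. It holds 15 CG dinucleotides, in capitals, and 48.9% of windows hold at least as many.
HOXC5 promoter, chr12:54016638-54016937, plus strand, 5′ to 3′: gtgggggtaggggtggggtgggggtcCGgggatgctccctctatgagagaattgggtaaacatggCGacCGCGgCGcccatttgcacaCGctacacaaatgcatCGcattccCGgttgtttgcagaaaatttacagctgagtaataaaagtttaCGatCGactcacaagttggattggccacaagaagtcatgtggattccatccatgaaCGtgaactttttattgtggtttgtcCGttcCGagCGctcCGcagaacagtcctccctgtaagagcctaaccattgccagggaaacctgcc
Neither motif was found in this window.

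HOXC13, which controls hair and nail keratins, and HOXC9, a trunk gene, ran in different orders. HOXC13 had 10.14 and 10.00 in SW620, 9.39 and 9.44 in COLO741, 8.71 and 8.52 in HCT116, and 8.40 and 8.41 in HT29, and SW620 was 3.16-fold above HT29 (1.66 ± 0.10; limma adjusted p = 3.47e-05). HOXC9 had 9.46 and 9.43 in COLO741, 9.17 and 9.16 in HCT116, 8.91 and 9.04 in SW620, and 7.73 and 7.91 in HT29. For both genes HT29 was lowest, and COLO741 was 3.09-fold above HT29 for HOXC9 (1.63 ± 0.09; adjusted p = 3.47e-05). HOXC8, a thoracic gene, had 9.05 and 9.07 in SW620, 8.60 and 8.94 in COLO741, 8.51 and 8.61 in HT29, and 8.04 and 8.09 in HCT116. COLO741 and HT29 overlapped, and SW620 was 2.0-fold above HCT116 (1.00 ± 0.11; adjusted p = 0.000475). That difference sits at the limit of the call: it was 0.93 without the ABCB5-positive SW620 array and 0.95 without the ABCB5-negative HCT116 array, where it was not called. HOXC11 and HOXC12 stayed near background, with line means of 7.38 to 7.66 and 7.54 to 7.71, and were not called.

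The HOXD genes, on chromosome 2, had the smallest median difference between the highest and lowest line, 0.33, against 0.64 over all genes tested. Of 9, 2 were called, next to 31.3% of all genes. Above background in all 4 lines were 5 of the 9, and 3 (HOXD3, HOXD10 and HOXD12) were in no line. For those 3, little difference between lines cannot be told apart from low signal. HOXD8 had 9.40 and 9.40 in COLO741, 8.56 and 8.55 in HCT116, 8.05 and 8.42 in SW620, and 8.03 and 7.94 in HT29. COLO741 was above all other arrays, 2.68-fold above HT29 (1.42 ± 0.13, SE; limma adjusted p = 0.000225). Its promoter window is shown because HOXD8 is the gene of the HOXD cluster whose difference was largest, with CG dinucleotides in capitals.
HOXD8 promoter, chr2:176129455-176129754, plus strand, 5′ to 3′: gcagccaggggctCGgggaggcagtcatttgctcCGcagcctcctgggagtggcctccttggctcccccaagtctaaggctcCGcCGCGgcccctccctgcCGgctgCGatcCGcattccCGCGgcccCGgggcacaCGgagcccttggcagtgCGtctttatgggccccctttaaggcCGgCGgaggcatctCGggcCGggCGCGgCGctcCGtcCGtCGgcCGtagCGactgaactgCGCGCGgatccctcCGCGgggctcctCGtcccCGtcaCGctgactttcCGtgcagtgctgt
It holds 34 CG dinucleotides, and 15.6% of windows hold at least as many. Of the 27 HOX genes, 11 have a RefSeq window in the table used, which hold 4 to 36 CG dinucleotides and a median of 23. HOXD9, which in mice patterns limbs and spine, had 9.13 and 8.98 in SW620, 7.92 and 7.76 in HT29, 7.84 and 7.78 in HCT116, and 7.75 and 7.79 in COLO741. Only the SW620 arrays were set apart, 2.43-fold above COLO741 (1.28 ± 0.09; limma adjusted p = 8.76e-05), and the other 3 lines overlapped. HOXD10 had a limma F adjusted p of 0.000764 with a difference of 0.87, but all its arrays, 6.26 to 7.20, were below the limits. The other HOXD genes, HOXD1, HOXD3, HOXD4, HOXD11, HOXD12 and HOXD13, had differences of 0.25 to 0.41 and were not called.

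**Figure D3:**
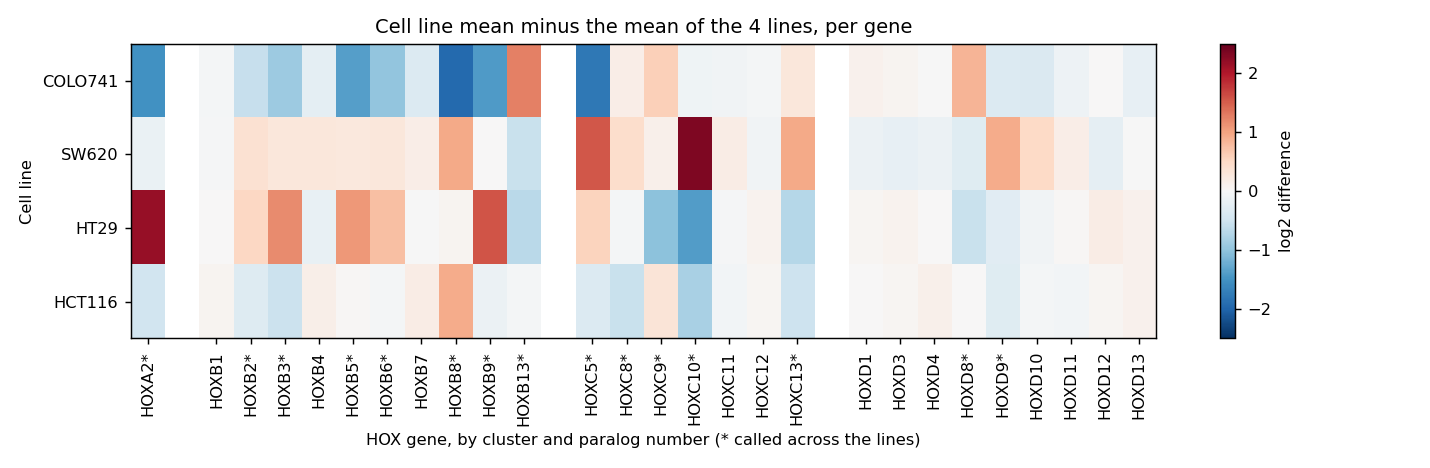
Line means of each HOX gene minus the mean of its 4 lines (log2, colour), in cluster order, with an asterisk for genes called across the lines. COLO741 was lowest for 9 of the 10 HOXB genes, HT29 was highest for HOXA2 and HOXB9, and SW620 was highest for HOXC5 and HOXC10.

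By paralog number, the middle groups held most of the calls: 9 of 10 genes numbered 5 to 9 were called, with a median difference of 1.68, against 3 of 8 numbered 1 to 4 and 3 of 9 numbered 10 to 13, with median differences of 0.41 in each. Of all genes tested, 31.3% were called, and their median difference was 0.64. The bands 1 to 4 and 10 to 13 hold HOXD3, HOXD10 and HOXD12, which were above background in no line. These bands were drawn after the values were seen and carry no test. Of the 5 paralog groups with over 1 called gene (2, 5, 8, 9 and 13), the called genes shared their highest line in group 2 alone. HOXB9 was highest in HT29, HOXC9 in COLO741 and HOXD9 in SW620, and HOXB13 was highest in COLO741 and HOXC13 in SW620, while HOXD13 was not called. HOXB5 was highest in HT29 and HOXC5 in SW620, and HOXB8 and HOXC8 were highest in SW620 and HOXD8 in COLO741. HOXA2 and HOXB2 were both highest in HT29 and lowest in COLO741. The highest line was not set apart from the next for HOXB2 (limma adjusted p = 0.467), HOXB8 (0.899), HOXC8 (0.0685) and HOXC9 (0.0532). Which groups share a highest line is therefore uncertain where these genes enter.

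The calls between pairs of lines lay mostly with HT29 and SW620 as the higher line. A pair call needed an adjusted p under 0.05 over all genes and 6 pairs together and at least 1 log2 unit, and 46 were made for HOX genes. Of the 27 HOX genes, 9 (33.3%) were called higher in SW620 than in COLO741, against 7.71% of all genes. Higher in COLO741 than in SW620 were 2 (7.41%), against 8.61%. HT29 exceeded COLO741 for 8 (29.6%), against 7.57%, and COLO741 exceeded HT29 for 5 (18.5%), against 9.99%. HCT116 exceeded COLO741 for 5 (18.5%), against 6.52%. COLO741 exceeded HCT116 for 1 (3.70%), which was HOXB13, against 8.55%. Among the other lines, SW620 was called above HCT116 for 5 (18.5%), against 6.25% of all genes, and below it for 0, against 5.15%. SW620 was called above HT29 for 4 (14.8%), against 7.28%. HT29 was called above SW620 for 2 (7.41%), HOXA2 and HOXB9, against 5.75%. HT29 was called above HCT116 for 4 (14.8%), against 6.07%. HCT116 was called above HT29 for 1 (3.70%), which was HOXC9, against 6.27%. HOXC5, HOXC8, HOXC10, HOXC13 and HOXD9 made up the SW620 genes above HCT116. Of the 46 calls, 16 were between lines other than COLO741.

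**Figure D4:**
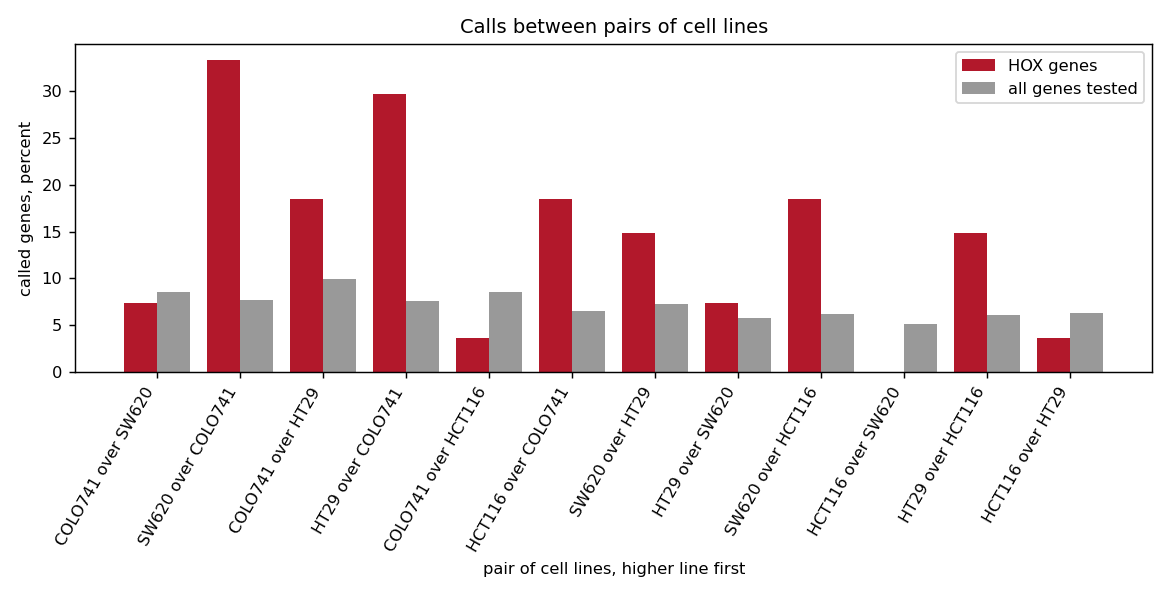
Percent of genes called (vertical axis) between each pair of lines, by the line that was higher, for the 27 HOX genes (red) and all 16910 genes tested (grey). The HOX share was 33.3% for SW620 over COLO741, against 7.71% of all genes, and 0 for HCT116 over SW620.

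The sorted populations, by contrast, gave no HOX call. ABCB5-positive cells were set against ABCB5-negative cells in limma with the cell line as a block, over 16910 genes. At an adjusted p under 0.05, 0 of 27 HOX genes and 0% of all genes were called, and the lowest adjusted p of a HOX gene was 0.898, the same value as the lowest over all genes. At an unadjusted p under 0.05, 1 HOX gene passed, and 4.40% of all genes did (744). HOX genes were higher in ABCB5-positive cells for 11 (40.7%) and lower for 16, and 48.0% of all genes tested were higher. The median difference was -0.02 over the HOX genes and -0.0047 over all genes tested. The sign was the same in all 4 lines for 3 HOX genes (11.1%) and for 13.4% of all genes tested. Of the 3, HOXA2 and HOXC8 were lower and HOXD11 higher in ABCB5-positive cells.

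HOXA2, whose array values are above, was lower in ABCB5-positive cells by 0.35 in SW620, 0.30 in HT29, 0.26 in HCT116 and 0.05 in COLO741, where it was below the limit on both arrays. Its mean difference was -0.24 ± 0.13 (SD, n = 4 lines; limma adjusted p = 0.898, unadjusted p = 0.0145). Its unadjusted p was the smallest of the HOX genes, and it was above 0.05 when SW620 or HT29 was left out, with mean differences of -0.20 without SW620 and -0.22 without HT29. In SW620 the populations also differed in phagocyte genes, whose part in this result was not tested. HOXD3 had 6.58 and 6.92 in ABCB5-positive and ABCB5-negative COLO741, 6.34 and 6.63 in SW620, 6.70 and 6.85 in HT29, and 6.74 and 6.70 in HCT116, all below the limit, a difference of -0.19 ± 0.17 (SD, n = 4; limma adjusted p = 0.898). HOXD11, a limb and kidney gene, differed by 0.13 ± 0.09 and HOXB7, a trunk gene, by 0.13 ± 0.12 (SD, n = 4; limma adjusted p = 0.898 for each). HOXD11 was higher in ABCB5-positive cells of each line, and HOXB7 of all lines but COLO741. HOXD11 had 7.65 and 7.54 in COLO741, 8.01 and 7.76 in SW620, 7.76 and 7.72 in HT29, and 7.69 and 7.58 in HCT116. HOXB7 had 9.25 and 9.28 in COLO741, 9.90 and 9.63 in SW620, 9.65 and 9.52 in HT29, and 9.86 and 9.72 in HCT116. The groups overlapped across the lines for all 4 of these genes.

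HOXB13 had the widest spread between the populations of 1 line. In COLO741 the ABCB5-positive array was lower by 1.40, and in SW620, HT29 and HCT116 the differences were 0.15, 0.11 and -0.01. Its mean difference was -0.29 ± 0.75 (SD, n = 4 lines; limma adjusted p = 0.905). On the same 2 COLO741 arrays ABCB5 ran 8.14 and 9.42 (ABCB5-positive, ABCB5-negative), and PBX3, a HOX cofactor, 9.99 and 7.46. The part of such array differences in the HOXB13 result was not tested.

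**Figure D5:**
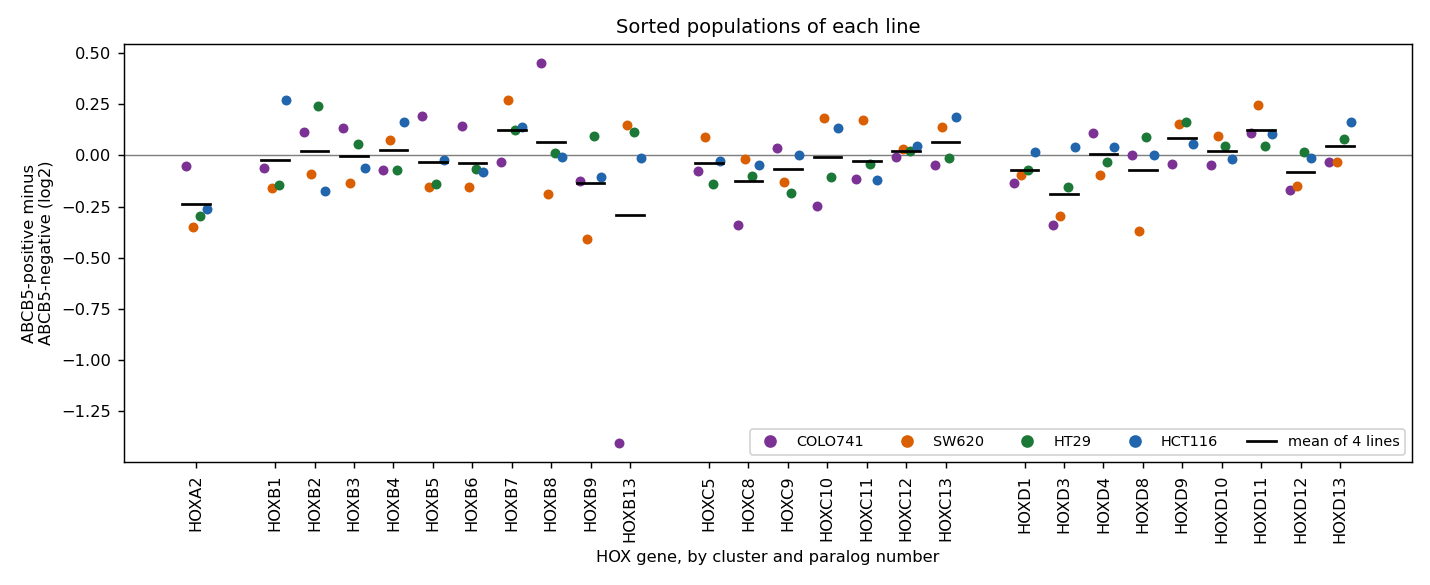
ABCB5-positive minus ABCB5-negative log2 difference (vertical axis) of each HOX gene in each line (coloured points), with the mean over the 4 lines as a bar. Nearly all points lie close to 0, HOXA2 lies below 0 in 4 of 4 lines, and HOXB13 in COLO741 lies at -1.40.

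Genes around the clusters and genes that act on them were described by their difference across the lines, by the rule that called 31.3% of all genes. Of 16 flanking and ParaHox genes, 15 were measured and 4 called. SKAP1, beside the front end of the HOXB cluster, averaged 11.5 in SW620, 9.20 in HT29, 8.62 in HCT116 and 6.09 in COLO741, where it was below background. SNX10, near the HOXA cluster, averaged 11.55 to 12.02 in the other lines, against 7.26 in HT29, where it was below background, and CDX2, the ParaHox gene of intestinal identity, averaged 9.92 in HCT116 and 8.56 in COLO741. Of 11 TALE cofactors, 9 were measured and 4 called: MEIS1 was highest in COLO741 at 9.73 and below background in HCT116 at 5.85, PBX3 averaged 10.9 in HT29 and 8.72 in COLO741, and MEIS2 averaged 10.9 in HT29 and 8.91 in SW620. The PBX3 call (limma adjusted p = 0.041) rested on a COLO741 mean of 2 arrays that were far apart.

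Of 25 Polycomb genes, 21 were measured and 5 called, the widest being JARID2 at 2.21 (COLO741 11.9, HT29 9.72), PHC1 at 2.13 and PCGF6 at 2.09. Of 17 Trithorax and activating genes, 16 were measured and 3 called, MLLT3 at 3.30 (HT29 12.0, HCT116 8.73), KMT2C at 1.81 and ASH2L at 1.75. Of 16 retinoic acid genes, 13 were measured and 8 called. ALDH1A1, an enzyme that makes retinoic acid, averaged 12.9 in HT29 and 6.33 in HCT116, CRABP2, which carries it, 12.6 in HT29 and 7.44 in COLO741, and STRA6, a retinol transporter, 10.9 in SW620 and 7.45 in COLO741. The medians of these lists were 0.67, 0.52 and 1.96, against 0.64 over all genes tested. Between the populations 0 genes of any list were called. Of 24 HOX cluster non-coding RNAs, 6 were measured, 4 tested and 2 called, MIR196A1 and HOXA-AS2, of which HOXA-AS2 was above background in no line. The probe set that names HOXC6 and HOXC4 together averaged 9.30 in SW620, 9.10 in HT29, 8.64 in COLO741 and 8.02 in HCT116, and all of these were above background.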

How the data were processed

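RNA of 4 cell lines was hybridised to 8 arrays, 1 per sorted population and line, and arrays were grouped by their labels. The authors deposited log2 expression values for 33297 probe sets, with 0 missing, made with Affymetrix Expression Console per the submitters' processing notes. Its version is not given in the sources used here, nor is the normalization. That the scale is log2 follows from values of 2.99 to 15.24, and array medians of 8.03 to 8.10 led to no further normalization. The number of arrays limits the precision.

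The platform annotation named probe sets, with symbols updated through RefSeq GRCh38.p14: 19460 had 1 gene, 1754 several and 12083 none listed. The brightest probe set per gene was used, and 1507 genes with a mean below the olfactory receptor median of 5.73 were left out. limma 3.58.1 in R 4.3.3, tested on simulated data, fitted each gene on cell line and sorted population (3 residual degrees of freedom, 3.44 added by moderation), with Benjamini-Hochberg adjustment and two-sided tests for differences. The replicate block comes from the labels, where a replicate number stands for 1 cell line. As a check of it, departures from the population means were correlated across genes between both arrays of each line, at 0.932 to 0.963. Since the lines differ from each other, this shows only that both arrays are of the same line. It cannot show that they came from the same sort or culture. A gene counted as above background in a line where both its arrays exceeded their limits.

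Alternatives were quantile normalization, other filters, the mean of all probe sets of a gene, other moderation, no population term, no or a random block, each array or line left out, and other background limits. One chosen after seeing the data left out COLO741. Array values are given for up to 5 called genes per cluster with the widest differences and the 4 genes of smallest unadjusted p between the populations. From each other list, up to 3 called genes with the widest differences are named. The members and lists were chosen with earlier results of these data known.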

Additional observations from a re-analysis of the deposited data

Results flagged for a closer look

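In 54 groups of 4 arrays (each HOX gene in each sorted population), 4 had an array further from its nearest neighbour, as a share of the group's range, than Dixon's 95% critical value allows. About 1 in 20 groups drawn from a single normal population would pass it. The 4 arrays of a group are of 4 different cell lines, so that rate is no yardstick for the 4 found. HOXD9 was highest in SW620 among the ABCB5-positive arrays (9.13, next 7.92, ratio 0.879) and among the ABCB5-negative arrays (8.98, next 7.79, ratio 0.970), so both sorted populations of SW620 stood apart. Among the ABCB5-positive arrays, HOXB1 was highest in HCT116 (8.21, next 7.95, ratio 0.852), and HOXD1 was lowest in SW620 (8.66, next 8.86, ratio 0.870). The part of cell composition in these array differences was not tested.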

How the results depend on the processing

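Of 374 recomputed differences between the highest and lowest line of single HOX genes, over 14 settings, 370 kept their direction and their side of the threshold, 3 lost the call and 1 changed sign. Many of these differences could not move, so the count overstates how much was put to the test. With 1 probe set per HOX gene, other filters, the mean of all probe sets, other moderation and no population term left each difference as it was. Only the p-value could change there. Leaving out an array of a line that was neither highest nor lowest also left the difference as it was. The sign change was HOXB1, which was not called and whose difference was -0.087 without the ABCB5-positive HCT116 array, the lowest, and 0.30 without the ABCB5-negative one, the highest, with any 1 array left out. The lost calls were HOXC8, as given above, and HOXB2, at 0.94 without the ABCB5-positive HT29 array. The HOX genes called across the lines numbered 14 to 15 with any 1 array left out, 10 without COLO741 and 15 under every other setting run. The 46 pair calls were 43 to 48 with any 1 array left out and 45 after quantile normalization, and the 16 pair calls between the other lines stayed 16 without COLO741. At a stricter background limit, the 99th percentile, 12 HOX genes were above it in COLO741, 9 in HCT116, 21 in SW620 and 17 in HT29, and the cause was not tested. No share of all genes at that limit is given beside these counts. Between the populations 0 HOX genes were called in every setting run: with no replicate block 0 passed an unadjusted p under 0.05, and with a random block 2 did. Signal over background limits HOXD3, HOXD10 and HOXD12, which were dim in all lines.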
